A study of Homo sapiens with 6 samples.

Results

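Long noncoding RNAs that are often measured in cancer were followed in MDA-MB-231 cells in which the chromatin protein HMGA2 had been knocked down. The set held 10 genes of the 61806 in the deposited table (MALAT1, NEAT1, TUG1, GAS5, SNHG1, SNHG5, MIR17HG, PVT1, CYTOR and MIR31HG), chosen by an exact match of the gene symbol. MDA-MB-231 is an established human triple-negative breast cancer line. It was infected with lentivirus carrying a control hairpin (shNC) or 1 of 2 pLKO hairpins against HMGA2 (shHMGA2-1 and shHMGA2-2), and RNA was sequenced from 2 libraries of each line after mRNA capture. Cells were selected with puromycin, and the study's methods describe growing them up from single clones after dilution. Each group is therefore 1 line, and the hairpin, its insertion sites and the line that carries it cannot be told apart. The library names read WT for the samples titled shNC and SH2 for those titled shHMGA2-1. Those of shHMGA2-2 follow another naming scheme with neither mark, and the titles were followed throughout. Nothing states that the 2 libraries of a line came from separate cultures, so p-values measure only the spread between these samples.

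A long noncoding RNA is usually capped and often spliced and polyadenylated like an mRNA but is not read into a long protein, and MALAT1 and NEAT1 are known as largely unspliced. Some of these RNAs build nuclear bodies, some carry snoRNAs or microRNAs that are cut out of their introns or exons, and some act on the gene next to them. HMGA2 is a small architectural protein whose AT hooks bind the minor groove of AT-rich DNA.

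The 6 microRNAs that are processed from the MIR17HG transcript on chromosome 13 show what that host carries. Their main arms fall into 4 seed groups, and the seed, bases 2 to 8 that pair with target mRNAs, is in capitals. The sequences are those of RefSeq (GRCh38.p14), and the first arm listed starts at 91350618 on the plus strand and the last ends at 91351382.

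miR-17-5p: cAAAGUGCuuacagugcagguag
miR-20a-5p: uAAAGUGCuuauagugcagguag
miR-18a-5p: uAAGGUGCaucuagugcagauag
miR-19a-3p: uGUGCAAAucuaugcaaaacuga
miR-19b-3p: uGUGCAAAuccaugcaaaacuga
miR-92a-3p: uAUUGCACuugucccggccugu

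The arms miR-17-5p and miR-20a-5p share the seed AAAGUGC, while miR-18a-5p has AAGGUGC. The seed of miR-19a-3p and of miR-19b-3p is GUGCAAA, and that of miR-92a-3p is AUUGCAC. MIR31HG hosts miR-31 (arm at chr9:21512158-21512178, minus strand), and CYTOR spans the hairpin of miR-4435 (arm at chr2:87629764-87629785, plus strand). Libraries of captured mRNA do not measure mature microRNAs, so what was measured was the host transcript.

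miR-31-5p: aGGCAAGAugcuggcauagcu
miR-4435: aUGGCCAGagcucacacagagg

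SNHG5, one of the snoRNA hosts, carries SNORD50B in an intron, from 85677589 to 85677658 on the minus strand of chromosome 6. The snoRNA is shown from GENCODE version 29 with its C box (TGATGA) and D box (CTGA) in capitals, the elements by which this class of guide RNA is protected when the intron is broken down.

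SNORD50B: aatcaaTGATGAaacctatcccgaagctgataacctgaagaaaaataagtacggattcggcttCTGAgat

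The promoters of GAS5, SNHG5 and SNHG1 are shown because these snoRNA hosts share a role and did not move together, and that of CYTOR because it fell in both knockdown lines. Each window of RefSeq (GRCh38.p14) holds 250 bases before the start site and 50 after it, on the gene's own strand: GAS5 at chr1:173868996-173869295 (minus), SNHG5 at chr6:85678684-85678983 (minus), SNHG1 at chr11:62855836-62856135 (minus) and CYTOR at chr2:87455177-87455476 (plus). Capitals mark matches, on either strand, to the NF-Y box CCAAT, the SP1 box GGGCGG, the AP-1 site TGACTCA, the E2F site TTTCGCGC, the MYC and MAX E-box CACGTG and the TATA box TATAAA, and no marked matches overlap in these 4 windows.

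GAS5: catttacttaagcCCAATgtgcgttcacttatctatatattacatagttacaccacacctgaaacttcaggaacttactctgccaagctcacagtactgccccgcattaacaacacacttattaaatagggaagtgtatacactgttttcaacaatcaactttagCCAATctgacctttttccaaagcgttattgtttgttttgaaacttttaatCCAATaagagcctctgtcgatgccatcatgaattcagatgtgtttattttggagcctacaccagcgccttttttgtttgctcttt
SNHG5: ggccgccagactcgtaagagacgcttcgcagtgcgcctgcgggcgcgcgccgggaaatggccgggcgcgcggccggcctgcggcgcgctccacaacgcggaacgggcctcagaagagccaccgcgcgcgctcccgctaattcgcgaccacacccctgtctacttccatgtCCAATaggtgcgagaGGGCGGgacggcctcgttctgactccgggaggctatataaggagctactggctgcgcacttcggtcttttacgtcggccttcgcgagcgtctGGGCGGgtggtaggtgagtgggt
SNHG1: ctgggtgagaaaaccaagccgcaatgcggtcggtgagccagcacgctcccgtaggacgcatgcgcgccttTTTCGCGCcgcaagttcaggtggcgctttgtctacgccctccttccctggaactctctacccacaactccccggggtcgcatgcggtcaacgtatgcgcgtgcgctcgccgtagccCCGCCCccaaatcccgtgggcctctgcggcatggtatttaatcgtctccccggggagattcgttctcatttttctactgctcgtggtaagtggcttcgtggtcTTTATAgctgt
CYTOR: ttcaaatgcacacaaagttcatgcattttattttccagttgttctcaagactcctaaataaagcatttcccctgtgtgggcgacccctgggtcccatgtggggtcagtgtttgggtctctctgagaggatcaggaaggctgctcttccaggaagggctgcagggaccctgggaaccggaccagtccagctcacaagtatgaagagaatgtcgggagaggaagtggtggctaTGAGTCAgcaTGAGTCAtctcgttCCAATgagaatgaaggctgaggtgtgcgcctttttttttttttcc

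The GAS5 window held 3 matches to CCAAT, which occurs in 34.6% of all 35116 promoters of this length, and none to GGGCGG, found in 45% of them. In the SNHG5 window there were 1 CCAAT and 2 GGGCGG matches. SNHG1 had 1 match to GGGCGG, 1 to TATAAA (in 11.5% of promoters) past its start site, and 1 to TTTCGCGC, which 0.515% of promoters hold. CYTOR had 2 matches to TGACTCA, present in 4.95% of promoters, close before its start, and 1 CCAAT. The E-box CACGTG (7.26% of promoters) was in none of these windows and was found 1 time in that of TUG1. By base composition the GAS5 window was 62.3% A and T against a median of 41.3% over all promoters, and 7.57% of promoters were richer in A and T. The values were 50.3% for CYTOR, 40% for SNHG1 and 32.3% for SNHG5. The start site of the GAS5 window, 173869045, lies outside the counted GAS5 gene, whose upstream end on the minus strand is 173868882. The GAS5 window may therefore not be the promoter of the transcripts that were counted. These matches describe the letters of the windows and say nothing of binding.

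The libraries held 16461178 to 17167293 counts, of which the 10 RNAs took 0.136% to 0.163%, and 16110 genes were tested. The labelled line was checked by 20 marker genes in FPKM. Of 5 expected in it, VIM stood at 411 to 432 FPKM in all lines and CD44 at 64.9 to 95.8 FPKM, while AXL went from 225 and 232 FPKM in shNC to 126 and 132 FPKM in shHMGA2-2, MSN from 129 and 133 FPKM to 67.5 and 65.4 FPKM, and CAV1 was at 99.9 to 189 FPKM. Of 5 expected to be low or absent, ESR1, PGR and CDH1 were at 0.05 FPKM or less, ERBB2 was at 6.43 to 10.8 FPKM, and EPCAM was at 3.08 to 3.54 FPKM in shNC and shHMGA2-2 and at 6.57 and 7.26 FPKM in shHMGA2-1. Of 3 luminal genes, KRT18 was at 28.3 to 37.4 FPKM in all lines, while KRT8 was at 10.7 to 13.2 FPKM and GATA3 at 0.65 to 1.01 FPKM in shNC and shHMGA2-1 and at 27 and 29.9 FPKM and 4.69 and 5.65 FPKM in shHMGA2-2. The 7 leukocyte, endothelial and adipocyte genes were at 0.3 FPKM or less. The markers thus differed between lines in no single direction, and their part in the results was not tested. HMGA2 itself had 2126 and 2161 counts in shNC, against 858 and 989 in shHMGA2-1, and 435 and 482 in shHMGA2-2. It fell by 1.29 ± 0.09 (log2, SE) in shHMGA2-1 and by 2.31 ± 0.09 in shHMGA2-2 (edgeR quasi-likelihood test, adjusted p = 2.17e-11 and 2.11e-16), and differed between the knockdown lines by -1.01 ± 0.10 (adjusted p = 3.07e-09).

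In shNC cells the 9 detected RNAs covered more than an order of magnitude in FPKM, a read count scaled by exon length and library total. SNHG1 was the highest at 42.8 ± 0.997 FPKM (SD, n = 2), followed by GAS5 at 29.3 ± 0.735, NEAT1 at 25.6 ± 0.799 and TUG1 at 22.1 ± 0.148 FPKM. SNHG5 stood at 8.48 ± 0.651 FPKM and CYTOR at 5.56 ± 0.0424 FPKM. PVT1 (1.33 ± 0.0778 FPKM), MIR17HG (1.25 ± 0.177) and MALAT1 (0.975 ± 0.106) were the lowest of those detected, and the values of PVT1 and MIR17HG overlapped. Among the 25481 genes with any count in shNC, 96.6% lay below SNHG1 in FPKM and 54% lay below MALAT1. Gene models differ in length, so levels are compared between genes only in FPKM. The exon length used can far exceed the longest GENCODE version 29 transcript. These lengths were 12604 and 1032 bases for SNHG5, 25431 and 1699 for PVT1, and 4932 and 1698 for GAS5. They were closer for SNHG1 (3976 and 2768) and NEAT1 (22767 and 22743). A model longer than its RNA lowers FPKM, so the order given here depends on the gene models.

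**Figure D1:**
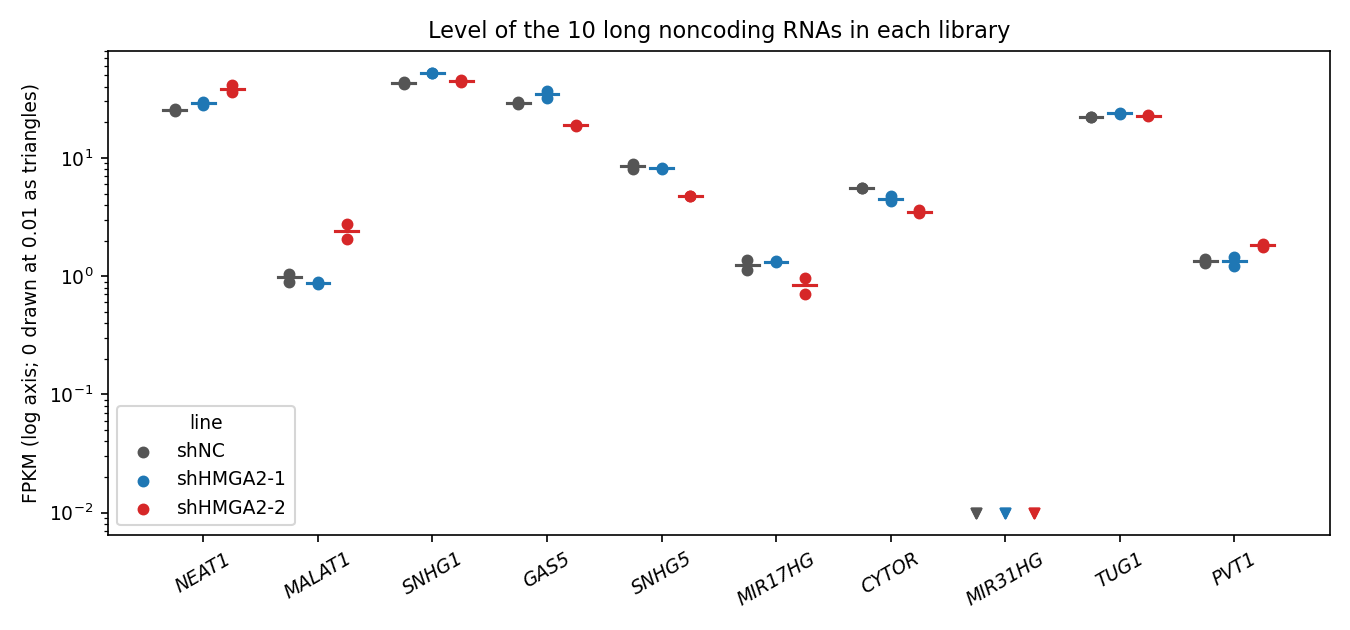
FPKM on a log axis of each of the 10 RNAs in each library (points) with the mean of each line (short bars), ordered by role; grey is shNC, blue shHMGA2-1 and red shHMGA2-2, and triangles mark 0. MALAT1 goes from a mean of 0.975 FPKM in shNC to 2.42 FPKM in shHMGA2-2, while GAS5, SNHG5 and CYTOR are lowest in shHMGA2-2.

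Against shNC, 7 of the 9 tested RNAs passed the adjusted threshold of 0.05 in shHMGA2-2, 3 higher (NEAT1, MALAT1 and PVT1) and 4 lower (GAS5, SNHG5, MIR17HG and CYTOR). Over all genes tested 58.7% passed there, 29.5% higher and 29.2% lower, so that most genes passed in this line. MALAT1 alone also changed by at least 2-fold, as 21.3% of all genes did. In shHMGA2-1 2 passed, SNHG1 higher and CYTOR lower, and neither by 2-fold. That count was 1 without either shNC library or in limma with a pseudocount of 0.1, 3 without shHMGA2-1 replicate 2, and 4 with upper quartile scaling or library totals. The background of that comparison was 33.4% of genes, 15.8% higher and 17.6% lower, with 8.49% past 2-fold. Of the 1960 long noncoding RNA genes tested, 15.4% passed in shHMGA2-1 and 39.2% in shHMGA2-2. The median log2 fold change of the 9 RNAs was 0.03 in shHMGA2-1 and -0.08 in shHMGA2-2, beside 0.01 and 0.03 over all genes. These comparisons share the shNC libraries, and in bulk RNA fewer cells with a transcript and less of it per cell cannot be told apart.

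The knockdown lines were also compared with each other. This contrast leaves out the level in shNC, but its filter, scaling and spread came from all libraries, shNC included. Of the 9 RNAs, 8 differed, 3 of them higher in shHMGA2-2 and 5 lower, and TUG1 was the exception. Over all genes 50.2% differed, 24.5% higher and 25.7% lower, with 15.1% past 2-fold, as MALAT1 was. With all 4 shHMGA2 libraries taken as a single group against shNC, 0 of 9 passed in edgeR, and 1 (CYTOR) had an unadjusted p under 0.05, while DESeq2 passed CYTOR. The background was 5.26% of genes, 2.34% higher and 2.92% lower, with 3.09% past 2-fold. In that fit the difference between the lines counts as spread.

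**Figure D2:**
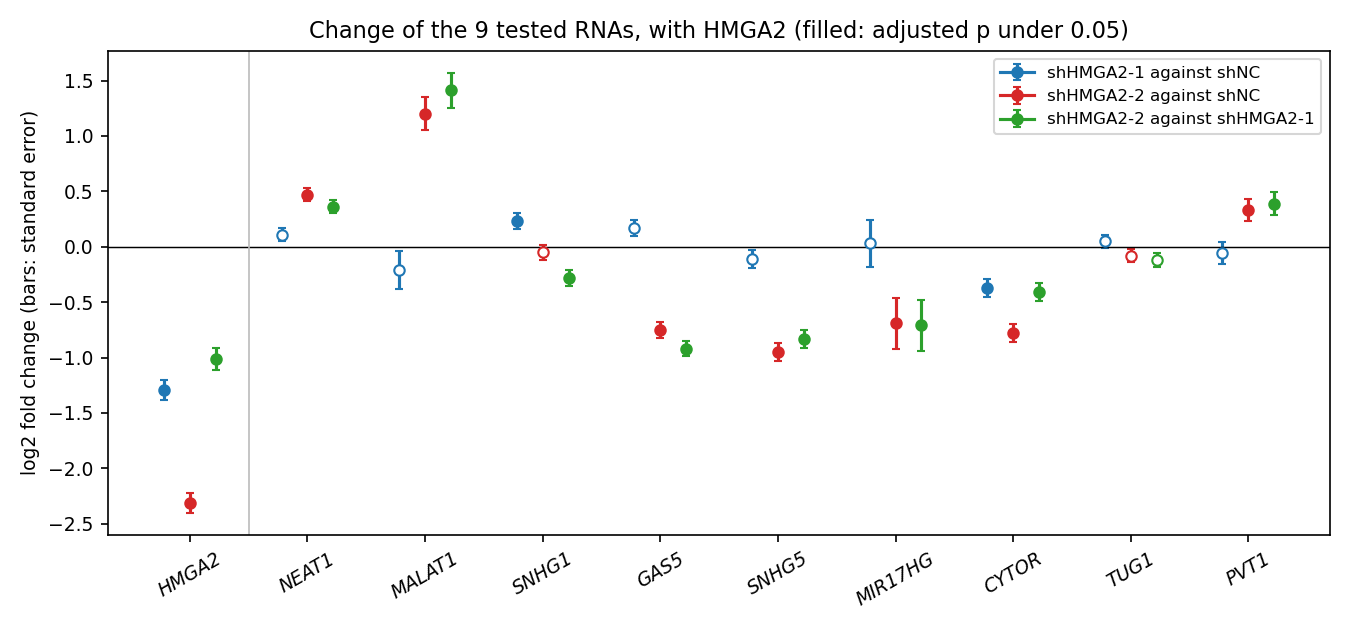
Log2 fold change with its standard error for HMGA2 and the 9 tested RNAs in shHMGA2-1 against shNC (blue), shHMGA2-2 against shNC (red) and shHMGA2-2 against shHMGA2-1 (green); filled points have an adjusted p under 0.05. CYTOR is below 0 and filled in all 3 comparisons, and most other filled points are of shHMGA2-2.

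NEAT1 and MALAT1 are neighbours on chromosome 11 and both stay in the nucleus. NEAT1 is the scaffold on which paraspeckles form. It had 10102 and 9668 counts in shNC, against 11643 and 10888 in shHMGA2-1, and 13546 and 15485 in shHMGA2-2. The 3 lines did not overlap, with the highest counts in shHMGA2-2. NEAT1 was 1.39-fold higher in shHMGA2-2 than in shNC (log2 0.47 ± 0.06, adjusted p = 4.42e-07) and higher than in shHMGA2-1 (0.36 ± 0.06, adjusted p = 2.48e-05). For shHMGA2-1 the log2 difference from shNC was 0.11 ± 0.06 (adjusted p = 0.184), and it passed with library totals or upper quartile scaling (adjusted p = 0.0323 and 0.0298; range over alternatives 0.0298 to 0.594). The long and the short form of NEAT1 share 1 count, so the form was not measured.

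MALAT1, a regulator of splicing that gathers in nuclear speckles, is among the most abundant RNAs of many cell types. Here it had only 135 and 157 counts in shNC, against 130 and 136 in shHMGA2-1, and 403 and 305 in shHMGA2-2. Both shHMGA2-2 libraries lay above the other 4, and those of shNC and shHMGA2-1 overlapped. The rise in shHMGA2-2 was 2.3-fold (log2 1.20 ± 0.15, adjusted p = 3.38e-07), the largest of the set, and it held in all 15 alternatives. Against shHMGA2-1 it was 2.66-fold (log2 1.41 ± 0.16, adjusted p = 4.56e-08), and shHMGA2-1 differed from shNC by -0.21 ± 0.17 (adjusted p = 0.373).

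The low MALAT1 counts stand beside a fact of the gene models. TALAM1, on the opposite strand, covers 81.6% of the MALAT1 span of 8829 bases, and with the other overlapping unspliced genes 88.5%, which leaves 1014 bases free. TALAM1 itself had 0 counts in 4 libraries and 1 in each of the shHMGA2-2 libraries. Whether the counting used strand is not given in the sources used here, and the part of the overlap in the low counts was not tested. As a description of these few counts, MALAT1 per length was below TUG1 and NEAT1 in every library.

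Mature MALAT1 is known to lack a poly(A) tail, so other such RNAs, among them 7SL RNA and replication histone mRNAs, were read beside it. The 34 such genes listed took 0.00508% and 0.00675% of counts in shNC, against 0.00579% and 0.00651% in shHMGA2-1 and 0.0101% and 0.0122% in shHMGA2-2. Only 10 of the 34 had enough counts to be tested, and 6 of these (60%) were higher in shHMGA2-2 and 0 lower, beside 29.5% higher and 29.2% lower over all genes, with a median log2 fold change of 0.82. The other 4 did not pass (H1-4, H2BC4 and H2BC11 at 0.91, 0.73 and 0.54, and H2BC5 at -0.25). H3C3 and H3C10, both among the 6, and H1-4 had 5 to 12 counts in shNC and shHMGA2-1, against 12 to 22 in shHMGA2-2. They entered the test only through shHMGA2-2, so the filter itself tilts the share and the median of that line upward. In shHMGA2-1 0 of the 10 passed, beside 33.4% of all genes, with a median of 0.27. The linker histone gene H1-2 rose by 1.47 ± 0.12 (adjusted p = 1.91e-10) in shHMGA2-2. RN7SL1 rose by 0.67 ± 0.21 there (adjusted p = 0.00839). Its libraries overlapped, with 598 and 281 counts in shNC, against 904 and 569 in shHMGA2-2. H1-2 differed by 0.02 ± 0.13 in shHMGA2-1 (adjusted p = 0.929). The part of such RNAs in the MALAT1 result was not tested.

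The genes of partner proteins were read beside these nuclear RNAs. Of 24 listed paraspeckle and speckle proteins, 2 passed in shHMGA2-1 (both higher) and 6 in shHMGA2-2 (5 higher, 1 lower), with medians of 0.04 and 0.03 in log2. These are 8.33% and 25% of the list, beside 33.4% and 58.7% of all genes. SRSF5, a splicing factor, rose by 0.36 ± 0.07 in shHMGA2-1 (adjusted p = 0.000198) and by 0.52 ± 0.07 in shHMGA2-2 (adjusted p = 3.83e-07). EWSR1, an RNA-binding protein, rose by 0.19 ± 0.06 in shHMGA2-1 and rose by 0.23 ± 0.06 in shHMGA2-2 (adjusted p = 0.0182 and 0.00197).

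Most neighbours of the pair that passed in shHMGA2-2 were higher. Within 500 kb of MALAT1, 53 genes were tested, NEAT1 among them, and 39 passed, 32 higher and 7 lower, beside 58.7% of all genes, 29.5% higher and 29.2% lower. Their median log2 fold change was 0.40, against 0.03 over all genes. In shHMGA2-1 12 passed, 5 higher and 7 lower, beside 33.4% of all genes, and the median was 0.05. A window of 5000 kb around MALAT1 was chosen after these values were seen. Of its 236 tested genes, 112 were higher and 45 lower in shHMGA2-2, with a median of 0.30. FRMD8, 9.25 kb from NEAT1, rose in shHMGA2-2 by 0.46 ± 0.13 (adjusted p = 0.00355). The gene ENSG00000173727, which lies between NEAT1 and MALAT1, went the other way, with 360 and 349 counts in shNC, against 131 and 98 in shHMGA2-2 (log2 -1.71 ± 0.14, adjusted p = 3.25e-10).

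Among the snoRNA hosts, GAS5 and SNHG5 fell in shHMGA2-2 and SNHG1 rose in shHMGA2-1. Their spliced RNAs have short reading frames and are known targets of nonsense-mediated decay, the pathway that removes RNAs with an early stop codon. GAS5, named for its rise in growth-arrested cells, had 2498 and 2412 counts in shNC, against 3095 and 2725 in shHMGA2-1, and 1518 and 1562 in shHMGA2-2. The shHMGA2-2 libraries were the lowest and the shHMGA2-1 libraries the highest, with no overlap. GAS5 was 1.69-fold lower in shHMGA2-2 than in shNC (log2 -0.75 ± 0.07, adjusted p = 4.19e-09) and 1.89-fold lower than in shHMGA2-1 (log2 -0.92 ± 0.07, adjusted p = 1.77e-10). In shHMGA2-1 it was 0.17 ± 0.07 above shNC (adjusted p = 0.0799), which passed in 3 of 15 alternatives (adjusted p 0.00328 to 0.381), among them leaving out shHMGA2-1 replicate 2.

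The genes around GAS5 on chromosome 1 were lower in shHMGA2-2 by about as much as GAS5. Within 500 kb 9 were tested, and 7 passed, all of these lower, beside 29.2% lower over all genes, with a median log2 fold change of -0.74. In shHMGA2-1 the median over the 9 was -0.02, in a range of -0.10 to 0.35. CENPL, a centromere protein gene 33.7 kb away, had 688 and 693 counts in shNC, against 420 and 440 in shHMGA2-2 (log2 -0.76 ± 0.10, adjusted p = 2.91e-07), and RC3H1, 62.2 kb away on the other side, fell by 0.49 ± 0.09 (adjusted p = 8.9e-05). A window of 5000 kb, chosen after the nearer values were seen, held 36 tested genes, of which 28 were lower and 0 higher in shHMGA2-2, with a median of -0.71. For shHMGA2-1 the same window gave 3 higher, 6 lower and a median of -0.07, beside 15.8% higher and 17.6% lower over all genes. The part of the region in the GAS5 result was not tested. ZBTB37 and GAS5-AS1 overlap GAS5 on the opposite strand, so that reads from them cannot be told apart without strand.

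**Figure D3:**
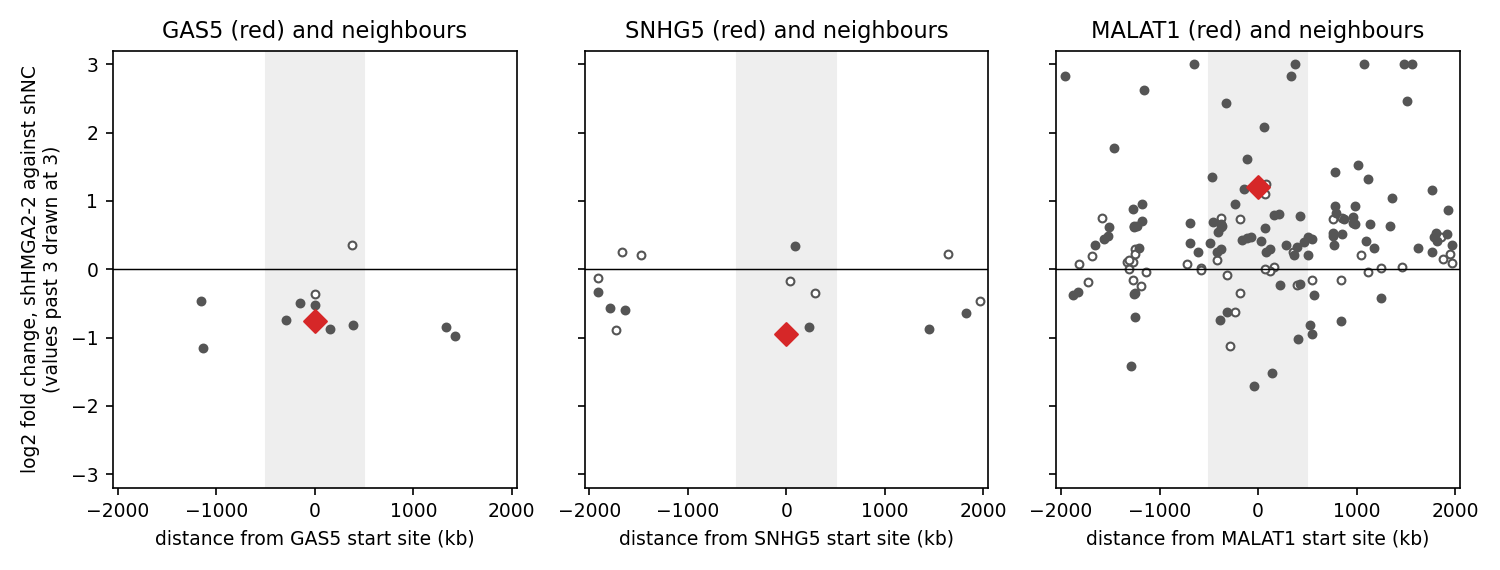
Log2 fold change in shHMGA2-2 against shNC of each tested gene by the distance of its start site from that of GAS5, SNHG5 or MALAT1 (red diamonds), in kb along the direction of transcription; filled grey points have an adjusted p under 0.05 and shading marks 500 kb on either side. Genes near GAS5 lie mostly below 0, around the GAS5 value of -0.75, and those near MALAT1 mostly above 0.

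SNHG5 had 1912 and 1716 counts in shNC, against 1760 and 1777 in shHMGA2-1, and 997 and 989 in shHMGA2-2. By count, the libraries of shNC and shHMGA2-1 overlapped, and those of shHMGA2-2 lay far below both. Scaled for library size as in the test, shHMGA2-1 lay just below shNC (101 and 105 against 118 and 106 CPM). SNHG5 was 1.93-fold lower in shHMGA2-2 than in shNC (log2 -0.95 ± 0.08, adjusted p = 2.94e-10), the deepest fall of the set, and 1.78-fold lower than in shHMGA2-1 (log2 -0.83 ± 0.08, adjusted p = 4.55e-09). In shHMGA2-1 it differed from shNC by -0.11 ± 0.08 (adjusted p = 0.277). Its nearest tested neighbour SYNCRIP, an RNA-binding protein gene 6.43 kb away, had 3311 and 3209 counts in shNC, against 3062 and 3050 in shHMGA2-2 (log2 -0.17 ± 0.08, adjusted p = 0.0563). An overlapping gene on the same strand, ENSG00000271793, covers 99.3% of its span and had a mean of 1.67 counts. Of the 4 tested genes within 500 kb, 1 was higher and 1 lower. Within 5000 kb 24 of 37 passed, 5 higher and 19 lower, with a median of -0.34. Over all genes 58.7% passed in shHMGA2-2, 29.5% higher and 29.2% lower.

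SNHG1, the host of several box C/D snoRNAs that guide methylation of ribosomal RNA, had 2844 and 2940 counts in shNC, against 3579 and 3573 in shHMGA2-1, and 2894 and 3010 in shHMGA2-2. By count, the shHMGA2-1 libraries stood above the other 4, which overlapped. Scaled for library size as in the test, shHMGA2-2 lay below shNC (171 and 173 against 175 and 181 CPM). SNHG1 was 1.17-fold higher in shHMGA2-1 (log2 0.23 ± 0.07, adjusted p = 0.009), and the log2 difference in shHMGA2-2 was -0.05 ± 0.07 (adjusted p = 0.531) and turned to 0.06 or 0.07 with upper quartile scaling, library totals and limma. The lines differed by -0.28 ± 0.07 (shHMGA2-2 minus shHMGA2-1, adjusted p = 0.000997). The call in shHMGA2-1 was lost without shNC replicate 1 (adjusted p = 0.16) or without shNC replicate 2 (0.0712), and the range over alternatives was 0.000974 to 0.16. SLC3A2, an amino acid transporter subunit that starts 0.051 kb away on the other strand, fell in shHMGA2-1 by 0.40 ± 0.07 (adjusted p = 4.76e-05), opposite to SNHG1, and differed by -0.01 ± 0.07 in shHMGA2-2 (adjusted p = 0.936).

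Other snoRNA hosts were read beside these. Of 23 tested, 6 passed in shHMGA2-1 (4 higher, 2 lower), and in shHMGA2-2 13 passed, 11 higher and 2 lower, with a median log2 fold change of 0.37 beside 0.03 over all genes. The shares that passed, 26.1% and 56.5%, stand beside 33.4% and 58.7% of all genes. GAS5 and SNHG5 fell in a line where most of the hosts that passed were higher. SNHG29, a host on chromosome 17, had 2436 and 2495 counts in shNC, against 4153 and 4191 in shHMGA2-2 (log2 0.68 ± 0.07, adjusted p = 4.05e-09) and rose by 0.25 ± 0.07 in shHMGA2-1 (adjusted p = 0.00521). DANCR fell by 0.32 ± 0.09 in shHMGA2-1 and fell by 0.37 ± 0.09 in shHMGA2-2 (adjusted p = 0.00869 and 0.00123), and SNHG8 fell by 0.30 ± 0.10 in shHMGA2-1 and fell by 0.48 ± 0.11 in shHMGA2-2 (adjusted p = 0.0302 and 0.000347). SNHG20 rose by 0.44 ± 0.16 in shHMGA2-1 and rose by 0.42 ± 0.17 in shHMGA2-2 (adjusted p = 0.0411 and 0.0313).

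Of the 15 decay factors that act on such RNAs, 6 passed in shHMGA2-1 (2 higher, 4 lower) and 11 in shHMGA2-2 (5 higher, 6 lower). These are 40% and 73.3%, beside 33.4% and 58.7% of all genes, and the medians were 0.02 in both lines. SMG6, the endonuclease of the pathway, fell by 0.92 ± 0.09 in shHMGA2-1 (adjusted p = 3.5e-08) and by 1.48 ± 0.10 in shHMGA2-2 (adjusted p = 3.3e-12). RBM8A, a core protein of the exon junction complex, fell by 0.26 ± 0.08 in shHMGA2-1 and fell by 0.51 ± 0.08 in shHMGA2-2 (adjusted p = 0.0104 and 4.36e-06), whereas SMG9, a subunit of the kinase complex, rose by 0.28 ± 0.09 in shHMGA2-1 and rose by 0.51 ± 0.09 in shHMGA2-2 (adjusted p = 0.0234 and 4e-05).

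The microRNA hosts were low or absent apart from CYTOR. MIR17HG, the transcript that carries the 6 microRNAs printed above, had 72 and 88 counts in shNC, against 85 and 87 in shHMGA2-1, and 44 and 61 in shHMGA2-2. The shHMGA2-2 libraries were the lowest, and the other lines overlapped. MIR17HG was 1.61-fold lower in shHMGA2-2 than in shNC (log2 -0.69 ± 0.23, adjusted p = 0.0128). That call was lost in DESeq2 (adjusted p = 0.107), with limma, without shNC replicate 2 (0.129) and without shHMGA2-2 replicate 1 (0.134), and the range over alternatives was 0.0079 to 0.134. The lines differed by -0.71 ± 0.23 (adjusted p = 0.0113), which DESeq2 (0.114), limma and the fit without shHMGA2-2 replicate 1 (0.13) also did not pass in a range of 0.0078 to 0.13. The log2 difference in shHMGA2-1 was 0.03 ± 0.21 (adjusted p = 0.952).

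Genes that are known to act on this host were among those listed. E2F1, an activator of MIR17HG and one of its targets, had 832 and 824 counts in shNC, against 1462 and 1865 in shHMGA2-2 (log2 0.92 ± 0.09, adjusted p = 8.67e-09), and E2F3 fell by 0.21 ± 0.08 (adjusted p = 0.0213). MYC, which activates the host as well, rose by 0.26 ± 0.07 (adjusted p = 0.00282). In shHMGA2-1 these 3 genes differed by 0.03, -0.01 and -0.02 in log2 (adjusted p = 0.865, 0.955 and 0.846). E2F1 and E2F3 were named after their values were seen.

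Other microRNA hosts were listed as well. Of 13 tested, 6 passed in shHMGA2-1 (2 higher, 4 lower) and 8 in shHMGA2-2 (4 higher, 4 lower), which is 46.2% and 61.5% beside 33.4% and 58.7% of all genes. MIR100HG, the host of miR-100 and let-7a-2, had 1082 and 1070 counts in shNC, against 533 and 600 in shHMGA2-1 and 656 and 691 in shHMGA2-2, and fell by 1.00 ± 0.09 in shHMGA2-1 and fell by 0.76 ± 0.09 in shHMGA2-2 (adjusted p = 6.56e-09 and 1.57e-07). MIR22HG fell by 0.27 ± 0.10 in shHMGA2-1 and fell by 0.79 ± 0.10 in shHMGA2-2 (adjusted p = 0.0379 and 4.41e-07), and MIR600HG rose by 0.79 ± 0.21 in shHMGA2-1 and rose by 2.16 ± 0.18 in shHMGA2-2 (adjusted p = 0.00445 and 3.17e-10). MIR3142HG, the host of miR-146a, fell by 2.24 ± 0.39 in shHMGA2-1 (adjusted p = 8.53e-05) and rose by 2.45 ± 0.23 in shHMGA2-2 (adjusted p = 1.45e-09).

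CYTOR, a cytoplasmic RNA also called LINC00152, was the 1 member that passed as lower in both knockdown lines. It had 1686 and 1670 counts in shNC, against 1447 and 1302 in shHMGA2-1, and 999 and 1066 in shHMGA2-2. The 3 lines did not overlap, in the order of their HMGA2 counts. CYTOR was 1.29-fold lower in shHMGA2-1 (log2 -0.37 ± 0.08, adjusted p = 0.000689) and 1.72-fold lower in shHMGA2-2 (log2 -0.78 ± 0.08, adjusted p = 7.99e-09), and the lines differed by -0.41 ± 0.08 (adjusted p = 0.000124). The shHMGA2-1 call was lost in limma with a pseudocount of 0.1 (adjusted p = 0.0533; range over alternatives 3.18e-05 to 0.0533). Taken over both lines the log2 fold change was -0.56 ± 0.16 (adjusted p = 0.103 in edgeR, 0.0341 in DESeq2; range 0.0341 to 0.441).

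MIR4435-2HG, elsewhere on chromosome 2, shares sequence with part of CYTOR. Of the stretches of 50 bases in CYTOR transcripts, 24.9% occur in another gene and 16% in MIR4435-2HG, the highest share with a single gene in the set apart from MIR31HG. MIR4435-2HG had 1739 and 1802 counts in shNC, against 1491 and 1637 in shHMGA2-1, and 1482 and 1446 in shHMGA2-2. It was lower too, with log2 fold changes of -0.26 ± 0.08 in shHMGA2-1 (adjusted p = 0.0134) and -0.35 ± 0.08 in shHMGA2-2 (adjusted p = 0.00045), and between the lines it differed by -0.10 ± 0.08 (adjusted p = 0.324). How reads that fit both genes were assigned is not given in the sources used here, so the level of each is uncertain. ENSG00000284879, on the same strand, spans nearly the whole of CYTOR and had a mean of 54.7 counts. Within 500 kb of CYTOR 7 genes were tested, and 2 were lower in shHMGA2-2 and 0 higher. Within 5000 kb 53 were tested, and 21 were lower in shHMGA2-2 and 7 higher, with a median log2 fold change of -0.16. Over all genes 29.2% were lower and 29.5% higher.

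MIR31HG had 0 counts in all 6 libraries, and so did its microRNA gene MIR31. A count of 0 allows up to 3 counts, or 0.175 to 0.182 CPM (counts scaled by library total), and covers counting error only. Of the stretches of 50 bases in its transcript, 36.9% lie in IFNWP19 on the opposite strand, which was at 0 as well. Most genes around it were at 0 too. Between FOCAD, 384 kb away, and CLIC4P1, 1188 kb away on the other side, 53 of 55 genes had 0 counts in every library and the highest count of any was 1. These included CDKN2A and CDKN2B, the cell cycle inhibitor genes that MDA-MB-231 cells are known to lack, CDKN2B-AS1, DMRTA1 and IFNE at 0, and MTAP and KLHL9 at 1 at most. No comparison between the lines could be made for MIR31HG.

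LIMA1, HIF1A and EPAS1 were listed with single members. HIF1A, an oxygen-regulated transcription factor, had 13549 and 13852 counts in shNC, against 19178 and 21086 in shHMGA2-1, and 8079 and 8287 in shHMGA2-2, so that it rose by 0.48 ± 0.06 in shHMGA2-1 (adjusted p = 9.76e-07) and fell by 0.82 ± 0.06 in shHMGA2-2 (adjusted p = 2.79e-11). Its relative EPAS1, which activates NEAT1 in hypoxia, fell by 2.36 ± 0.10 in shHMGA2-1 and fell by 1.27 ± 0.10 in shHMGA2-2 (adjusted p = 1.26e-14 and 3.28e-11). LIMA1, an actin-binding protein, fell by 0.32 ± 0.07 in shHMGA2-1 and rose by 0.73 ± 0.06 in shHMGA2-2 (adjusted p = 0.000405 and 7.19e-10). Of the 11 such genes tested, 6 passed in shHMGA2-1 (4 higher) and 10 in shHMGA2-2 (6 higher), or 54.5% and 90.9% beside 33.4% and 58.7% of all genes.

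TUG1, a long RNA that shares a bidirectional promoter region with MORC2, passed in none of the comparisons. It had 3789 and 3826 counts in shNC, against 4202 and 4098 in shHMGA2-1, and 3859 and 3777 in shHMGA2-2. By count, the shNC and shHMGA2-2 libraries overlapped, and those of shHMGA2-1 lay slightly above. Scaled for library size as in the test, shHMGA2-2 lay below shNC (228 and 217 against 233 and 236 CPM). The log2 differences were 0.05 ± 0.06 in shHMGA2-1 (adjusted p = 0.632), -0.08 ± 0.06 in shHMGA2-2 (adjusted p = 0.321), which turned to 0.04 with limma, upper quartile scaling and library totals, and -0.12 ± 0.06 between the lines (adjusted p = 0.119), and none passed in any of 15 alternatives. MORC2, which starts 0.471 kb away on the other strand, fell by 0.33 ± 0.08 in shHMGA2-1 (adjusted p = 0.0042) and by 0.59 ± 0.09 in shHMGA2-2 (adjusted p = 2.38e-06).

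PVT1 lies 51.6 kb from MYC on chromosome 8 and is often amplified with it. It had 599 and 552 counts in shNC, against 636 and 531 in shHMGA2-1, and 745 and 788 in shHMGA2-2. The shHMGA2-2 libraries stood above the other 4, which overlapped. PVT1 was 1.26-fold higher in shHMGA2-2 than in shNC (log2 0.33 ± 0.10, adjusted p = 0.00591), beside 0.26 ± 0.07 for MYC, which had 2003 and 2151 counts in shNC, against 2540 and 2730 in shHMGA2-2. The PVT1 call was lost without shNC replicate 2 (adjusted p = 0.102), without shHMGA2-2 replicate 2 (0.0639) and in limma with a pseudocount of 0.1 (0.0514), in a range of 0.000473 to 0.102. The lines differed by 0.39 ± 0.10 (adjusted p = 0.00191), which limma did not pass (0.0599 and 0.0618; range 8.46e-05 to 0.0618), and shHMGA2-1 differed from shNC by -0.06 ± 0.10 (adjusted p = 0.702), which turned to values of 0.0011 to 0.05 in 5 alternatives.

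Across the 6 libraries the gene most like an RNA was found by Pearson's r of log2(CPM + 1), among 10892 or 10893 genes with a mean of at least 5 CPM. These were ZNF512B for NEAT1 (r = 0.9987), ATP5F1C for MALAT1 (0.9981), GTF3C1 for GAS5 (0.9997) and WDFY3 for SNHG5 (0.9991). For MIR17HG it was LYRM4-AS1 (0.9967), for CYTOR IGFBP4 (0.9992), for TUG1 EEF1A1P6 (0.9961) and for PVT1 SFXN5 (0.9929). The 6 points come from 3 lines, and between 62 and 1177 genes had an r over 0.95 with a given RNA, so these names describe likeness and no more. IGFBP4, a secreted binding protein of insulin-like growth factors, went from 779 and 740 CPM in shNC to 446 and 383 in shHMGA2-1 and 215 and 228 in shHMGA2-2, a steeper course than that of CYTOR.

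Other cancer-associated long noncoding RNAs were read last. Of 50 listed, 28 were tested, of which 9 passed in shHMGA2-1 (4 higher, 5 lower) and 19 in shHMGA2-2 (11 higher, 8 lower), or 32.1% and 67.9% beside 33.4% and 58.7%. The antisense RNAs HIF1A-AS3 and ZEB1-AS1 cannot be told apart from their partner genes without strand. HIF1A-AS3 had 485 and 435 counts in shNC and fell by 1.09 ± 0.13 in shHMGA2-1 (adjusted p = 2.41e-07) and by 3.14 ± 0.16 in shHMGA2-2 (adjusted p = 1.36e-14). LUCAT1 fell by 2.36 ± 0.15 in shHMGA2-1 and fell by 1.02 ± 0.13 in shHMGA2-2 (adjusted p = 5.91e-12 and 2.67e-07), and ZEB1-AS1 fell by 0.43 ± 0.13 in shHMGA2-1 and fell by 1.47 ± 0.14 in shHMGA2-2 (adjusted p = 0.00961 and 2.19e-09). HULC, at 1 and 3 counts in shNC, is at or under the floor there, and it had 12 and 9 counts in shHMGA2-1 and 17 and 23 in shHMGA2-2. None of the 9 members moved by more than 1.20 in log2 against shNC.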

How the data were processed

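The members and gene lists were chosen with earlier results of these data known. Groups and replicate numbers came from the sample titles. The authors deposited 1 table that gives each gene a count and an FPKM value in every library. Counts are whole numbers without normalization, and the deposited FPKM values (counts scaled by exon length and library total) were recomputed within 0.0051 for 100% of values. The submitters' processing notes name HISAT2 2.2.1, HTSeq 0.6.1 and GRCh38.p13; the annotation version and strand setting are not given in the sources used here. Sample columns not used numbered 0.

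Counts were tested with edgeR 4.0.16 in R 4.3.3 (TMM factors 0.958 to 1.05, filterByExpr, quasi-likelihood test) over 16110 genes, and p-values were adjusted by the Benjamini-Hochberg method. A model with 3 groups (common biological coefficient of variation 0.0583) gave each line against shNC and the lines against each other. A second model joined the 4 shHMGA2 libraries (0.291). Called means an adjusted p under 0.05. The test was checked on simulated counts. Alternatives were DESeq2 1.42.0, limma 3.58.1 on log2(FPKM + 1 or + 0.1), other scalings and filters, the replicate number as a block, and each library left out.

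All 10 members and HMGA2 were named. From each list up to 4 genes called in both lines were named, otherwise the 2 highest in FPKM. Nearest tested and overlapping genes and the most alike gene were also named, and any others were picked after their values were seen. Some genes that these rules name are not reported here. Overlaps were computed from the gene coordinates in the deposited table. Transcripts are from GENCODE version 29 (GRCh38), and python 3.11.15 was used. Of 10 members, 8 had a RefSeq promoter entry. Intervals from counts of 0 cover counting error only, since no molecular identifiers are described.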

Additional observations from a re-analysis of the deposited data

Results flagged for a closer look

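Between the knockdown lines 8 of the 9 tested RNAs differed when shHMGA2-2 was compared directly with shHMGA2-1 in the edgeR model, which tests the difference itself (adjusted p under the threshold for each). The log2 fold changes (shHMGA2-2 over shHMGA2-1) were 1.41 for MALAT1, 0.36 for NEAT1 and 0.39 for PVT1, all higher in shHMGA2-2. They were -0.92 for GAS5, -0.83 for SNHG5, -0.71 for MIR17HG, -0.41 for CYTOR and -0.28 for SNHG1, all lower in shHMGA2-2. Both libraries of shHMGA2-2 lay on the same side of both libraries of shHMGA2-1 for each of the 8. The 8 were picked by this test, so that separation adds nothing to the calls, and its share over all genes was not computed. Of all genes, 50.2% differed in this comparison.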

How the results depend on the processing

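Of the values recomputed under other settings, 496 kept their direction and their side of the threshold, 17 lost a call, 6 gained one and 21 changed sign, none of these called. The number called in shHMGA2-1 was 2 and became 1 with limma at a pseudocount of 0.1, 4 with upper quartile scaling and 4 with library totals, and 1 to 3 with a library left out (1 without either shNC library); DESeq2 called 1 in the joined group. Upper quartile scaling and library totals moved the median of all genes in shHMGA2-2 against shNC by 0.115 and 0.120 in log2. The 7 members called in that comparison kept their calls under both scalings. Sign changes, with log2 values, were TUG1 in shHMGA2-2 (0.04) and in the joined group (0.01 with a stricter filter, 0.07 and 0.08 by scaling or tool, -0.03 to 0.01 with a library left out), SNHG1 in shHMGA2-2 (0.06, 0.07), MIR17HG in shHMGA2-1 (-0.12 to 0.18 with a library left out) and PVT1 in shHMGA2-1 (0.0011, 0.0016, 0.005 and 0.01 by scaling or tool, -0.18 to 0.05 with a library left out); the cause was not tested. A line left with 1 library was assumed to vary like the others. With the replicate block the counts of called members were 2, 7, 8 and 0, as without it. Deviations of same-numbered libraries correlated at -0.0218, 0.00213 and -0.1, so the numbers were not taken to pair the samples. With 2 libraries a line, 1 clone a hairpin and 44 to 88 counts for MIR17HG, small changes of this gene were not detectable at this depth.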

Other observations

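UCA1, a long noncoding RNA of the wider cancer list that was singled out after its values were seen, had 16 and 11 counts in shNC, against 26 and 21 in shHMGA2-1, and 6192 and 6850 in shHMGA2-2 (log2 8.82 ± 0.14 against shNC, edgeR adjusted p = 2.58e-24). MIR99AHG, the host of let-7c and miR-99a, chosen in the same way, had 55 and 72 counts in shNC, against 55 and 50 in shHMGA2-1, and 6 and 2 in shHMGA2-2 (log2 -4.03 ± 0.44, adjusted p = 2.23e-08).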
